A study of Rattus norvegicus with 32 samples.

Results

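The growth hormone and Igf axis was followed through 10 rat genes, namely the growth hormone receptor Ghr, the hormone Igf1, the receptors Igf1r and Igf2r, the carrier subunit Igfals and the binding proteins Igfbp1, Igfbp2, Igfbp3, Igfbp4 and Igfbp5. They were chosen by gene symbol, and each of the 10 had exactly 1 row among 19434 transcript clusters, of which 13327 carry a single symbol. RNA was measured on Affymetrix Rat Exon 1.0 ST arrays in Sprague-Dawley rats at lactation day 10 to 11 and in age-matched virgin controls, with 16 rats per state sacrificed at hour 16. Liver was taken whole and the duodenum, jejunum and ileum as scrapes of the mucosa according to the methods, although the labels call the intestinal samples homogenates of whole tissue. RNA of 4 rats made each pool and the same rats were pooled for every tissue, so that lactating liver, duodenum, jejunum and ileum and control liver, duodenum, jejunum and ileum each had 4 pools, on 32 arrays in all. Individual rats cannot be told apart within a pool, and no group differed by genotype or by any agent given.

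Pituitary growth hormone binds Ghr on hepatocytes, and the kinase Jak2 and the transcription factor Stat5b then carry the signal to target genes such as Igf1. Most circulating Igf1 comes from the liver and travels in a complex of Igfbp3 or Igfbp5 with the Igfals product. The binding proteins hold Igf1 and Igf2 away from their receptor Igf1r, Igf2r takes Igf2 to the lysosome, and hepatic Igfbp1 and Igfbp2 are known to be higher when insulin is low.

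The starts of 3 genes are shown because the liver results below turn on them. Igfbp2 was the gene of the 10 whose change passed the test. The liver difference of Igfbp1 passed only with 1 certain pool left out. Cish stands for the target genes of the growth hormone receptor. Each sequence is the RefSeq promoter window of 300 bases on build GRCr8, from 250 bases before the gene's start to 50 after it. Capitals mark 1 searched motif per gene, which is GGGCGG in Igfbp2 (the core of the GC box), CAAAACA in Igfbp1 (part of the insulin response element) and TTCNNNGAA in Cish (the letters that Stat5 proteins bind).
Igfbp2, chr9:81864561-81864860, plus strand: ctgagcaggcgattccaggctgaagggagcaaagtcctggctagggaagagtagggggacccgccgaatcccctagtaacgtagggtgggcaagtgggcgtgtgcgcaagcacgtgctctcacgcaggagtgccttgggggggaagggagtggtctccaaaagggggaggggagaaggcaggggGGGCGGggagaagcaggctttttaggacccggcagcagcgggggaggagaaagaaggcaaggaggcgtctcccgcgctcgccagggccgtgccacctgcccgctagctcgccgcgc
Igfbp1, chr14:86261027-86261326, plus strand: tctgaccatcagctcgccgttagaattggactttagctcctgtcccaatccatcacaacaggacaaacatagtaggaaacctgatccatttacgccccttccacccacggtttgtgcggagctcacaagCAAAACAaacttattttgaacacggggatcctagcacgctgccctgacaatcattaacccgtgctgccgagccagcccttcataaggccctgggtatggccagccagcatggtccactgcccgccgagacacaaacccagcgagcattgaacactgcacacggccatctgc
Cish, chr8:116850719-116851018, plus strand: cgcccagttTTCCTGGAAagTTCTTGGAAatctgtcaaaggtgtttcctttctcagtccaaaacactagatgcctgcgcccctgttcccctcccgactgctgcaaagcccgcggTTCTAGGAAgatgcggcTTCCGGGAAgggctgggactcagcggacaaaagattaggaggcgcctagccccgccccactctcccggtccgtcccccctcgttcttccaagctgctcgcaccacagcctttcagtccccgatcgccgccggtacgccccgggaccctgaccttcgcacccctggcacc

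Both strands were searched for these motifs and for TATAAA (the TATA box), and no matches overlapped in the windows shown. All 10 genes had a promoter entry, and none of the 10 windows held TTCNNNGAA, a motif found in 8.87% of 33469 rat promoters of the same length. The Cish window held it 4 times, with first bases at 10, 21, 115 and 132, and 2 of all promoters (0.00598%) held it 4 or more times. The Cish window also held CAAAACA once, with its first base at 59, and on the minus strand the GC box core once, with its first base at 183. CAAAACA stood once in the Igfbp1 window, 121 bases before the start, and once in that of Igf1, against 6.28% of all promoters. GGGCGG stood in the windows of Igfbp2, Igf1r and Igf2r (33.1% of all promoters) and TATAAA in that of Igfbp4 (14.2%). The Igfbp2 window was 66.7% G and C, against a median of 51.7% over all promoters. Igfbp2 and Igfbp5 are neighbours on chromosome 9 and Igfbp1 and Igfbp3 are neighbours on chromosome 14, while Ghr lies on chromosome 2, Igf1 on 7, Igf1r and Igf2r on 1, and Igfals and Igfbp4 on 10.

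Values are the deposited log2 values and differences are lactating minus control, so that a difference of 1 is 2-fold. Array medians lay between 4.68 and 4.87. Marker medians matched the tissue labels. In the liver 7 of 7 measured hepatocyte markers had means of 12.48 to 13.64. Their medians were 5.05 (duodenum), 5.33 (jejunum) and 4.15 (ileum), but their highest means there were 11.81, 11.07 and 10.85. Between the states limma called 1 of 7 higher in the duodenum (0.643% of all clusters were called). In the jejunum it called 2 higher and 1 lower (0.808%). The 3 measured enterocyte markers had means of 4.56 to 5.30 in the liver and 11.05 to 13.42 in the duodenum. In the ileum their means spread more, at 6.81 to 13.50, and 0 of 3 were called between the states (limma; 2 of 3 at an unadjusted p under 0.05, as were 11.1% of all clusters). There Lct, the lactase gene, differed by -1.76 ± 0.53 (limma adjusted p = 0.107, and 0.0352 with the number of the pool in the fit). Alpi, intestinal alkaline phosphatase, differed by -0.60 ± 0.24 (adjusted p = 0.3), while the remaining marker differed by 0.12. The part of such markers in the ileal values was not tested. In the duodenum all 8 acinar genes of the pancreas fell, by 3.50 to 4.74 on the log2 scale, and the mean of that list was 5.32 to 9.68 in lactating pools and 10.70 to 12.03 in control pools. In the jejunum the adipocyte list averaged 5.32 to 5.66 in lactating and 6.07 to 6.36 in control pools. There 1 of 6, Adipoq, was called lower (0.808% of all clusters were called in either direction). The differences on the list ran from -2.94, that of Adipoq, to 0.27.

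Ghr, Igf1, Igfals, Igfbp1, Igfbp2, Igfbp3 and Igfbp4 were higher in the liver than in the mean of the intestinal segments in both states, and Igfbp5 was lower. The test was limma, a linear model fitted to all clusters in which each pool is a random block, and a gene was called at a Benjamini-Hochberg adjusted p under 0.05 over all clusters. In total 8 of the 10 genes were called between liver and intestine in lactating rats and 9 in control rats, where 46.0% and 46.3% of all clusters were. The 7 higher genes stood beside 22.0% of all clusters in lactating and 22.7% in control rats, and lower levels beside 24.1% and 23.6%, the lower genes being Igfbp5 in both states and Igf1r in control rats. The liver exceeded the intestine by 6.15 ± 0.15 in lactating and 6.50 ± 0.15 in control rats for Igf1 (difference of means ± SE, n = 4 pools). For Ghr it exceeded by 2.78 ± 0.07 in lactating and 3.00 ± 0.07 in control rats, and for Igfbp4 by 4.06 ± 0.11 and 4.68 ± 0.11. In the intestine Igfals lay between 1.79 and 4.44 and Igfbp1 between 3.41 and 4.23, below the median of every array, so that little can be read from their intestinal differences and no size is given for how far the liver exceeded them. For the order of tissues given with each gene, 2 tissues were compared in the same fit. It called 40.2% of all clusters between liver and duodenum in lactating and 40.6% in control rats, 43.1% and 43.5% between liver and jejunum, 43.9% and 43.3% between liver and ileum, 16.9% and 13.1% between duodenum and jejunum, 17.8% and 20.8% between duodenum and ileum, and 30.4% and 26.1% between jejunum and ileum.

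**Figure D1:**
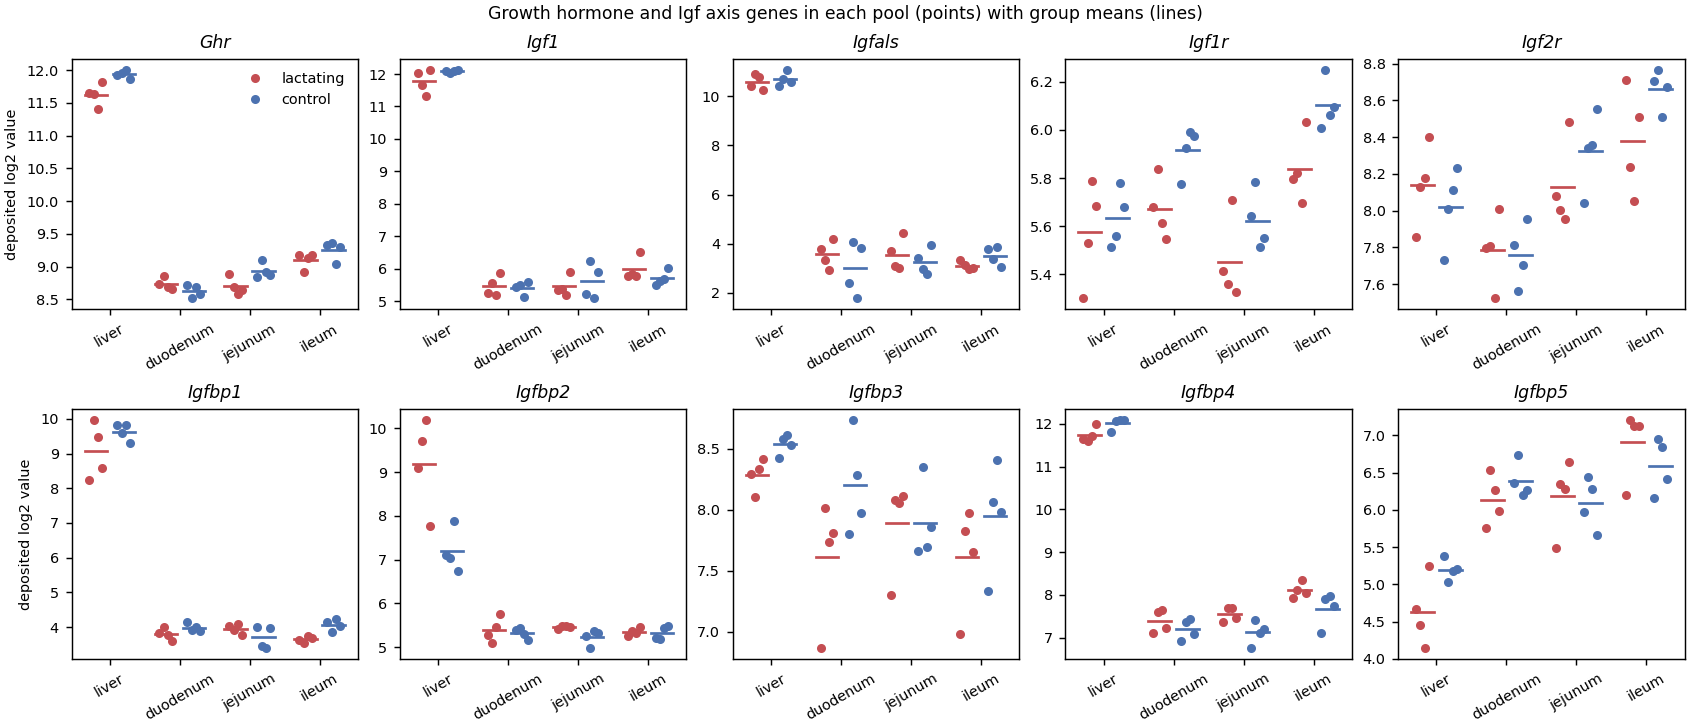
Deposited log2 value (y axis, a separate scale per gene) of each of the 10 genes in lactating (red) and control (blue) pools of 4 tissues; points are pools and lines group means. Igfbp2 in the liver averaged 9.19 in lactating and 7.19 in control pools, while its intestinal groups all averaged between 5.23 and 5.46.

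Lactating and control rats were then compared within each tissue. Of the 10 genes 1, Igfbp2, was called in at least 1 tissue, as were 4.04% of all clusters. The call was in the liver, where 1.88% of all clusters were called, 0.715% as higher in lactating rats, so that 1 of 10 genes is a small count to set against that share. The share of all clusters called was 0.643% for duodenum, 0.808% for jejunum and 1.28% for ileum. None of the 10 was called in the duodenum, jejunum or ileum by limma. The repeated measures model of the study, with the same adjustment, called none there either. The study itself set its thresholds on unadjusted p, and these were not applied here. Igfbp4 had an unadjusted limma p of 0.00899 in the ileum and of 0.0474 over the 4 tissues. Igfbp4 was called in the jejunum and the ileum when the number of the pool was added to the fit. At an unadjusted p under 0.05, limma gave 4 of the 10 genes in the liver and 2 in each intestinal segment, where it gave 12.2% (liver), 8.96% (duodenum), 11.1% (jejunum) and 11.1% (ileum) of all clusters. The median difference of the 10 genes was -0.26 in the liver, where that of all clusters was 0.01, and -0.21 in the ileum, where that of all clusters was 0.02. In the duodenum and jejunum it was 0.03 and 0.05, where the medians of all clusters were 0.04 and 0.01.

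**Figure D2:**
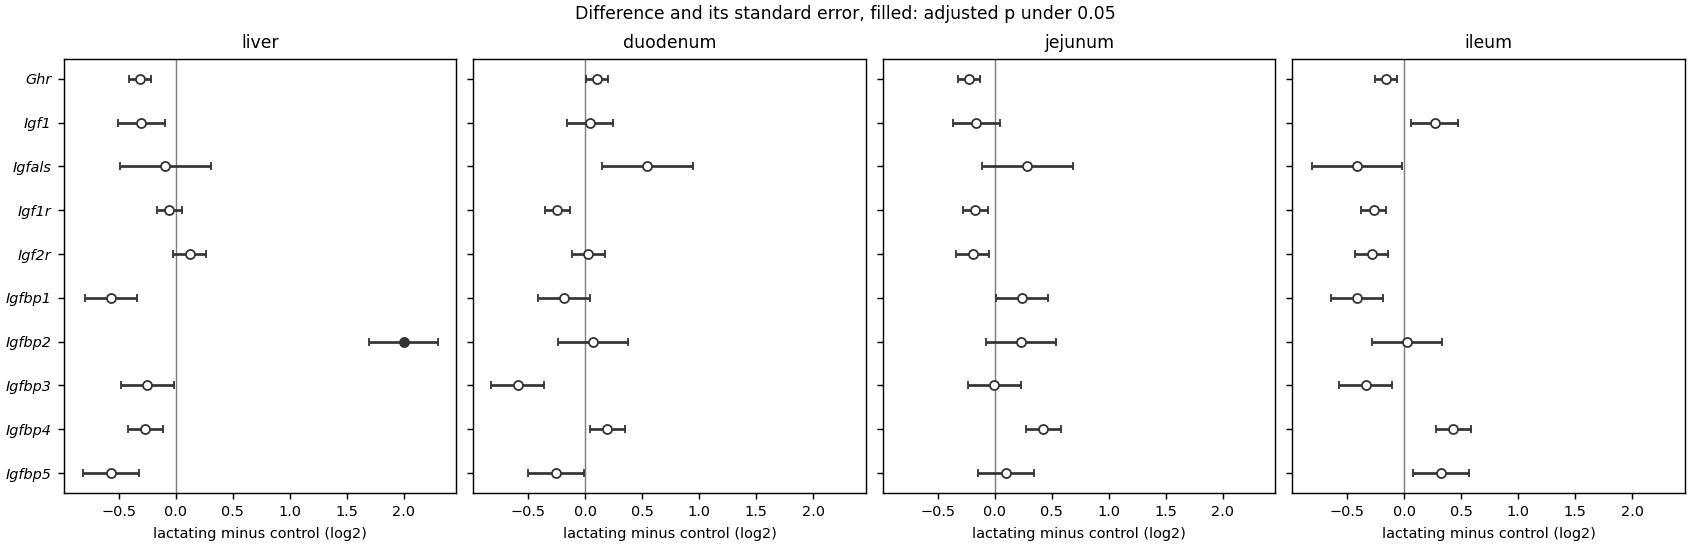
Lactating minus control (x axis, log2) for the 10 genes in each tissue, with bars of 1 SE from limma; filled points have an adjusted p under 0.05. The filled point is Igfbp2 in the liver at 2.00, and the other liver points lie between -0.57 and 0.12.

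Ghr, through which growth hormone acts, gave 11.65, 11.63, 11.41 and 11.81 in the lactating liver pools, against 11.92, 11.96, 12.00 and 11.87 in the control pools. All 4 lactating pools lay below all 4 control pools. The difference was -0.31 ± 0.10 (SE), 1.24-fold lower, and did not pass adjustment (limma, adjusted p = 0.101). With the replicate number of the pools (1 to 4 in each state) as a block, a further term in the fit, the adjusted p was 0.0478, in a fit that called 4.13% of all clusters in the liver. In such bulk samples fewer cells of a type and less RNA per cell cannot be told apart.

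In the intestine Ghr differed by 0.10 (duodenum), -0.23 (jejunum) and -0.16 (ileum) (SE 0.10 each, limma adjusted p = 0.847, 0.351 and 0.589), with overlapping pools in each segment. The tissues ran from liver through ileum to the upper segments in both states. Ileum exceeded duodenum by 0.36 in lactating rats (adjusted p = 0.00297) and jejunum by 0.33 in control rats (adjusted p = 0.00546). Duodenum and jejunum were 0.03 apart in lactating rats (adjusted p = 0.872), while in control rats the jejunum exceeded the duodenum by 0.30 (adjusted p = 0.0197).

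Igf1, the hormone itself, gave 12.02, 11.66, 11.32 and 12.11 in lactating liver pools, against 12.09, 12.03, 12.09 and 12.11 in control liver pools. The control pools lay close together, whereas 3 lactating pools lay below all of them and lactating pool 4 lay among them. The SD was 0.36 over the lactating and 0.03 over the control pools. The difference of -0.30 ± 0.21 did not pass (limma adjusted p = 0.615), and its 95% interval ran from -0.72 to 0.12.

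The intestinal values of Igf1 lay between 5.10 and 6.52, and no intestinal difference passed, with values of 0.04 for duodenum, -0.16 for jejunum and 0.27 for ileum (SE 0.21, limma adjusted p = 0.981, 0.847 and 0.712). Below the liver the order of Igf1 levels in lactating rats was ileum, duodenum and jejunum. Ileum and duodenum, and duodenum and jejunum, did not differ beyond their spread, while jejunum minus ileum was -0.52 ± 0.19 (adjusted p = 0.034) and duodenum minus ileum -0.52 (adjusted p = 0.0559). In control rats no segments were called apart.

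Igfals, the liver protein that completes the circulating complex, gave 10.43, 10.90, 10.78 and 10.27 in lactating liver pools and 10.43, 10.69, 11.05 and 10.58 in control liver pools. The pools of the states were mixed, and the difference was -0.09 ± 0.40 (limma adjusted p = 0.966). Its 95% interval, -0.90 to 0.72, leaves room for sizable changes either way. The liver came first in level for Igfals and Igfbp1, and no 2 segments were called apart for either gene in either state.

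Igf1r, the signalling receptor for Igf1, gave 5.80, 5.82, 5.70 and 6.03 in the lactating ileum, against 6.01, 6.25, 6.06 and 6.10 in the control ileum. In the duodenum it gave 5.68, 5.84, 5.61 and 5.55 in lactating pools, against 5.78, 5.93, 5.99 and 5.98 in control pools. In both segments 1 lactating pool reached into the control range. The differences were -0.27 for ileum, -0.25 for duodenum, -0.17 for jejunum and -0.06 for liver (SE 0.11 each), all below 0 and none past adjustment (limma adjusted p = 0.311, 0.489, 0.598 and 0.912).

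Over the 4 tissues the Igf1r difference was -0.19 ± 0.07 (limma adjusted p = 0.156). It passed with the replicate number as a block (adjusted p = 0.00652), as did Ghr at -0.15 ± 0.06 (0.205, and 0.0138 with the block), Igfbp2 at 0.58 ± 0.19 (0.0986, and 0.00259), Igfbp3 at -0.30 ± 0.14 (0.35, and 0.0112) and Igfbp4 at 0.19 ± 0.09 (0.353, and 0.0105). That makes 5 of the 10 genes with the block, in a fit that called 17.5% of all clusters for this average, against 0 of 10 and 2.51% without it. At an unadjusted p under 0.05 the fit without it also gave 5, and 13.9% of all clusters. Without lactating pool 4 the Igfbp2 average was 0.66 (adjusted p = 0.004). Without any 1 of the other 7 pools it stayed uncalled and was as low as 0.49. It joins a difference of 2.00 in the liver with 0.02 to 0.23 in the intestine.

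Liver less intestine was -0.08 ± 0.08 for Igf1r in lactating rats (limma adjusted p = 0.491) and -0.25 ± 0.08 in control rats (adjusted p = 0.0134), where the liver was lower. The control difference had an adjusted p of 0.0601 without control pool 1 and 0.128 without control pool 2. The change of this difference with lactation, 0.17 ± 0.12, did not pass (adjusted p = 0.614). In both states the order of Igf1r levels was ileum, duodenum, liver and jejunum, and the neighbours called in it were duodenum and liver in control rats, where liver minus duodenum was -0.28 (adjusted p = 0.0234). Jejunum minus ileum was -0.38 in lactating rats (adjusted p = 0.00359) and -0.48 in control rats (adjusted p = 0.00052), and liver minus ileum was -0.26 (adjusted p = 0.0358) and -0.47 (adjusted p = 0.000256).

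Igf2r, which clears Igf2, gave 7.86, 8.13, 8.18 and 8.40 in lactating and 7.73, 8.01, 8.11 and 8.23 in control liver pools. The ranges overlapped, and each lactating pool was slightly above the control pool of its number, as in 10.4% of all clusters. Igf2r differed by 0.12 ± 0.14 (limma adjusted p = 0.833). In the ileum it gave 8.71, 8.23, 8.05 and 8.51 in lactating and 8.70, 8.76, 8.51 and 8.67 in control pools, a difference of -0.28 ± 0.14 (adjusted p = 0.474). The duodenal and jejunal differences were 0.03 and -0.19 (adjusted p = 0.983 and 0.67), and no pair of tissues next to each other in level was called in either state. Tissues farther apart in the order were: duodenum minus ileum was -0.59 in lactating rats (adjusted p = 0.00133) and -0.91 in control rats (adjusted p = 5.4e-06). Liver minus duodenum was 0.36 in lactating rats (adjusted p = 0.0309). In control rats liver minus ileum was -0.64 (adjusted p = 0.000156) and duodenum minus jejunum -0.57 (adjusted p = 0.0035).

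Igfbp1, a binding protein that is secreted by the liver, gave 8.24, 9.97, 9.47 and 8.60 in lactating liver pools, against 9.81, 9.60, 9.81 and 9.31 in control liver pools. Lactating pools 1 and 4 lay below every control pool and lactating pool 2 above every one. The difference was -0.57 ± 0.23 (limma adjusted p = 0.274). Without lactating pool 2 it was -0.86 (adjusted p = 0.0297). Without any 1 of the other pools it stayed uncalled, and it shrank to as little as -0.29.

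In the ileum Igfbp1 was 3.64, 3.55, 3.75 and 3.69 in lactating pools, against 4.14, 3.87, 4.23 and 4.02 in control pools, with all lactating pools below all control pools at a level under the array medians. The difference was -0.41 ± 0.23 (limma adjusted p = 0.543). The gene differed by -0.19 in the duodenum and 0.24 in the jejunum (adjusted p = 0.901 and 0.77).

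Igfbp2 rose in the lactating liver. The pools gave 9.09, 9.71, 10.19 and 7.76 in lactating rats, against 7.12, 7.03, 7.88 and 6.74 in control rats. Lactating pool 4, the lowest of its state, lay just below control pool 3, the highest of its state, so the groups overlapped by that 1 pool. Means were 9.19 ± 1.05 in lactating and 7.19 ± 0.49 in control pools (SD, n = 4). The difference was 2.00 ± 0.30 (95% interval 1.37 to 2.62), 4.00-fold, with a limma adjusted p of 0.000145, and it was higher in 4 of 4 pairs of pools with the same number, by 1.98, 2.68, 2.31 and 1.02. In the liver 10.4% of all clusters were higher for all 4 numbers.

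Number 4 was the lowest and number 3 the highest pool for Igfbp2 in the liver of both states. The lactating liver SD of 1.05 stood beside intestinal SDs of 0.03 to 0.28, and limma here uses 1 spread for all tissues. From the 8 liver arrays alone the same difference had an SE of 0.48 and did not pass (adjusted p = 0.223), in a fit that called 43 clusters. Leaving out any 1 pool kept it past the threshold at 1.66 to 2.47.

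In the intestine Igfbp2 differed by 0.07 for duodenum, 0.23 for jejunum and 0.02 for ileum (SE 0.30, limma adjusted p = 0.978, 0.857 and 0.992). In the jejunum the lactating pools, at 5.42, 5.48, 5.48 and 5.46, were all above the highest control pool, 5.36. The lactation effect differed among the tissues (interaction, adjusted p = 0.00531; 2.05% of all clusters were called), and exceeded the intestinal mean by 1.89 ± 0.32 in the liver (adjusted p = 0.000716; 2.05% called). Without lactating pool 2 the interaction had an adjusted p of 0.0624, without lactating pool 3 of 0.0586 and without control pool 4 of 0.0573. The liver exceeded the intestine by 3.79 ± 0.23 in lactating rats and by 1.90 ± 0.23 in control rats, and neighbouring segments did not differ in level beyond their spread.

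After each tissue's mean was taken off, the genes whose values over the 32 arrays were most like those of Igfbp2 were Nfe2 (Pearson r = 0.87), A2m (0.85) and Tmem25 (0.85), out of 13214 named genes. The means of the states were not taken off, so the difference of Igfbp2 between states in the liver is part of these correlations. These arrays share pools and states, and the correlations are a description.

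**Figure D3:**
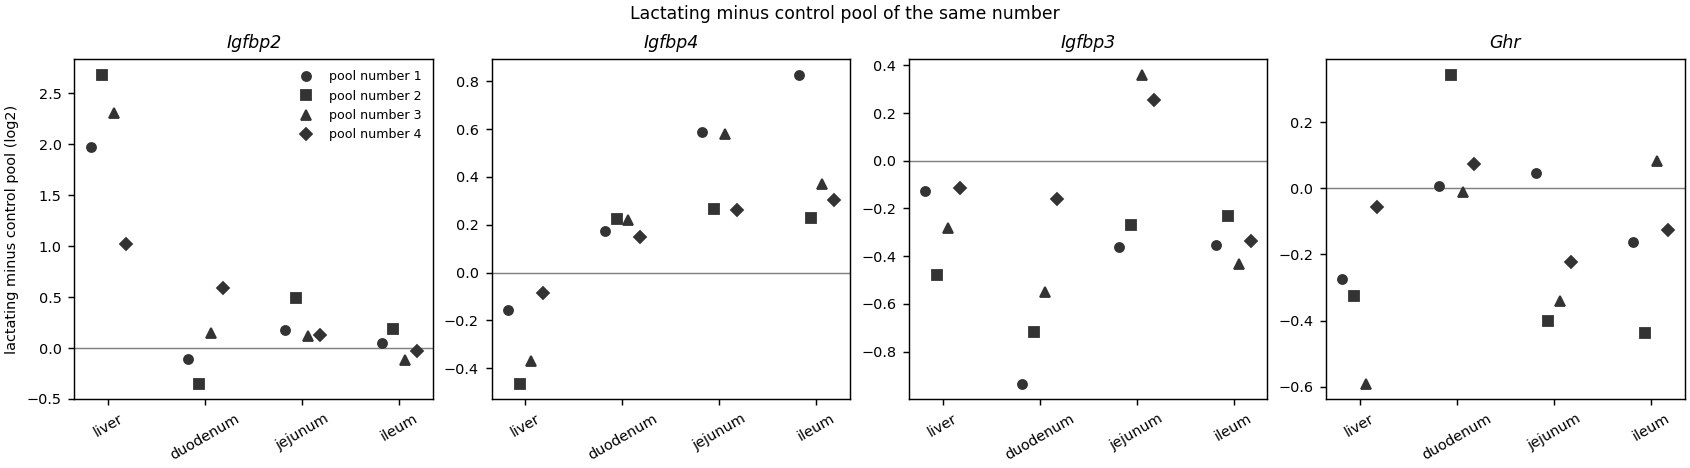
Lactating minus control pool of the same number (y axis, log2, a separate scale per gene) for Igfbp2, Igfbp4, Igfbp3 and Ghr in 4 tissues; each point is 1 number. Igfbp2 lies at 1.02 to 2.68 in the liver, and Igfbp4 lies below 0 in the liver and above 0 in every intestinal segment for all 4 numbers.

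Igfbp3, the main carrier of Igf1 in blood, gave 8.30, 8.10, 8.33 and 8.41 in lactating liver pools, against 8.42, 8.58, 8.61 and 8.53 in control liver pools. The lactating pools all lay below the control pools, if narrowly, and the difference was -0.25 ± 0.23 (limma adjusted p = 0.76). Ghr and Igfbp3 were the 2 of 10 genes whose lactating liver pools all lay below the control pools, as 2.65% of all clusters did. In the duodenum none of the 10 had pools apart (5.78% of all clusters in either direction). In the jejunum Igfbp2 had all lactating pools above (2.59%), and in the ileum Igfbp1 had all lactating pools below (4.03%).

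In the duodenum Igfbp3 gave 6.87, 8.02, 7.73 and 7.81 in lactating and 7.80, 8.74, 8.28 and 7.97 in control pools. Each lactating pool was below the control pool of its number, as in 7.92% of all clusters, at differences of -0.93, -0.72, -0.55 and -0.16, while the ranges overlapped. The difference was -0.59 ± 0.23 (limma adjusted p = 0.406). The acinar genes of the pancreas fell in the same duodenal pools, and their part in this value was not tested. In the ileum the difference was -0.34 ± 0.23 (adjusted p = 0.662), again lower for 4 of 4 numbers (as were 13.2% of all clusters), and in the jejunum it was 0.00 (adjusted p = 0.997).

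The level of Igfbp3 in the liver exceeded the intestinal mean by 0.58 ± 0.17 in lactating and 0.52 ± 0.17 in control rats (limma adjusted p = 0.00614 and 0.0137). The lactating difference had an adjusted p of 0.0708 without lactating pool 1. The control difference had an adjusted p of 0.0807 without control pool 1 and 0.0638 without control pool 4. No neighbouring tissues in its order of levels were called. Liver minus ileum was 0.68 in lactating rats (adjusted p = 0.00989) and 0.59 in control rats (adjusted p = 0.0251), liver minus duodenum 0.68 in lactating rats (adjusted p = 0.0107) and liver minus jejunum 0.64 in control rats (adjusted p = 0.0142).

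Igfbp4, an inhibitor of Igf action that proteases can cut, had differences of opposite sign in liver and intestine. In the liver it gave 11.65, 11.61, 11.72 and 12.00 in lactating pools, against 11.81, 12.07, 12.09 and 12.08 in control pools. In the jejunum it gave 7.35, 7.68, 7.69 and 7.45 in lactating pools, against 6.76, 7.41, 7.12 and 7.19 in control pools. In the ileum it gave 7.93, 8.12, 8.34 and 8.05 in lactating pools, against 7.10, 7.89, 7.97 and 7.74 in control pools. In each tissue the ranges overlapped. The duodenum gave 7.10, 7.59, 7.65 and 7.23 in lactating and 6.92, 7.37, 7.43 and 7.08 in control pools, with wide overlap.

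Set by number, the Igfbp4 value was lower in the lactating pool for 4 of 4 numbers in the liver (at -0.16, -0.46, -0.37 and -0.09) and higher for 4 of 4 in each segment, at 0.17, 0.22, 0.22 and 0.15 (duodenum), 0.59, 0.27, 0.58 and 0.26 (jejunum) and 0.83, 0.23, 0.37 and 0.30 (ileum). Of all clusters 10.6% were lower for all 4 numbers in the liver, and 18.4%, 10.9% and 15.0% were higher for all 4 in the duodenum, jejunum and ileum. No single-tissue difference passed, at -0.27 for liver, 0.19 for duodenum, 0.42 for jejunum and 0.43 for ileum (SE 0.15, limma adjusted p = 0.52, 0.807, 0.261 and 0.205). With the replicate number as a block the jejunum (adjusted p = 0.0455) and ileum (0.0286) passed, in fits that called 2.10% and 3.78% of all clusters.

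The lactation effect on Igfbp4 in the liver, less its mean in the intestine, was -0.62 ± 0.16 (limma adjusted p = 0.0401). The call held without lactating pool 4 and without control pool 1 and was lost without any 1 of the others. The adjusted p was 0.0616, 0.191 and 0.181 without lactating pools 1, 2 and 3, and 0.0595, 0.0694 and 0.13 without control pools 2, 3 and 4. The interaction over the 4 tissues had an adjusted p of 0.126, and of 0.0309 with the replicate number as a block, which called 2.36% of all clusters. The same difference between liver and intestine was -0.62 ± 0.26 for Igfbp5 and did not pass (adjusted p = 0.296).

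Beside Igfbp4, the mesenchyme and stellate cell markers averaged 7.39 to 7.84 in lactating and 7.08 to 7.67 in control pools of the jejunum. There 1 of 6, the matrix protein gene Lum, was called (1.19 ± 0.28, limma adjusted p = 0.0294), where 0.345% of all clusters rose. In the ileum they averaged 7.85 to 8.14 in lactating and 7.37 to 7.89 in control pools, and 0 of 6 were called (Lum 0.90 ± 0.28, adjusted p = 0.112). With the replicate number as a block Col1a2 and Col3a1 were also called in the jejunum (adjusted p = 0.0124 and 0.0487) and Lum in the ileum (0.0143). That fit called 2.10% of all clusters in the jejunum and 3.78% in the ileum. The median difference of the 6 markers was 0.32 in the jejunum and 0.23 in the ileum. It was 0.23 in the liver and 0.04 in the duodenum, where 0 of 6 were called. The part of these markers in the Igfbp4 values was not tested. By level, the liver was followed by the ileum in both states, which exceeded the next segment by 0.56 in lactating and 0.48 in control rats (adjusted p = 0.00241 and 0.0143), and jejunum and duodenum did not differ from each other beyond their spread.

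Igfbp5, which with Igfals can also carry Igf1, was lower in the liver than in the intestine, with differences of -1.79 ± 0.19 in lactating and -1.16 ± 0.19 in control rats. It gave 4.67, 4.46, 4.15 and 5.24 in lactating and 5.38, 5.03, 5.17 and 5.20 in control liver pools. Lactating pools 1, 2 and 3 lay below every control pool and also below the medians of their arrays, and lactating pool 4 lay among the control pools, for a difference of -0.57 ± 0.25 (limma adjusted p = 0.331). Its neighbour on chromosome 9, Igfbp2, differed by 2.00 in the same liver pools.

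In the ileum Igfbp5 gave 6.21, 7.21, 7.13 and 7.12 in lactating and 6.16, 6.96, 6.85 and 6.41 in control pools. It was higher for 4 of 4 numbers, as were 15.0% of all clusters, at 0.32 ± 0.25 (limma adjusted p = 0.714). In the duodenum and jejunum it differed by -0.26 and 0.10 (adjusted p = 0.859 and 0.935). In lactating rats the ileum exceeded the jejunum by 0.73 (adjusted p = 0.0146), and in control rats the segments did not differ from their neighbours beyond their spread.

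A list of growth hormone receptor signalling, which also holds the receptor Prlr, had 11 of its 13 genes measured. The 4 that fell in the liver were Stat5b, Cish, Socs2 and Prlr, with none called in the intestine by limma. At an unadjusted p under 0.05 there were 2 of 11 in the duodenum and 0 of 11 in the jejunum and the ileum. In the liver 1.17% of all clusters fell, and the median difference of the list was -0.41, where that of all clusters was 0.01. The 7 hepatocyte markers had a median difference of 0.03 in the liver, and 0 of 7 were called or had an unadjusted p under 0.05 (limma). Stat5b gave 8.17, 8.55, 8.60 and 8.57 in lactating pools, against 8.68, 8.78, 9.09 and 9.13 in control pools. Cish, an inhibitor that Stat5 induces, gave 6.19, 6.43, 6.08 and 5.87 in lactating pools, against 8.05, 7.05, 7.53 and 6.14 in control pools. Socs2, another such inhibitor, gave 9.02, 8.85, 8.74 and 9.24 in lactating pools, against 9.91, 9.09, 9.68 and 9.68 in control pools.

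The groups of Stat5b were apart, while control pool 4 of Cish and control pool 2 of Socs2 lay within reach of the lactating pools. Differences were -0.45 ± 0.11 for Stat5b, -1.05 ± 0.26 for Cish and -0.63 ± 0.16 for Socs2 (limma adjusted p = 0.0322, 0.0278 and 0.0309). The prolactin receptor Prlr, which also signals through Stat5, gave 10.07, 10.24, 10.01 and 10.24 in lactating pools, against 10.75, 10.80, 10.95 and 10.89 in control pools, with a difference of -0.71 ± 0.13 (adjusted p = 0.00212). Jak2, the kinase on Ghr, differed by -0.41 ± 0.12 (adjusted p = 0.0671). In duodenum, jejunum and ileum Cish differed by -0.17, -0.20 and -0.37, and Stat5b by -0.01, -0.15 and -0.04, none of them called. Socs2 differed there by 0.10, 0.04 and -0.31, and Prlr by 0.30, -0.08 and -0.08, again uncalled. A test of liver against intestine is not reported here for these genes.

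The Prlr call held without any 1 pool, whereas the other 3 were each lost without several. The adjusted p of Stat5b was 0.183, 0.0558 and 0.0662 without lactating pools 1, 2 and 3, and 0.187 and 0.168 without control pools 3 and 4. That of Cish was 0.08, 0.128 and 0.0949 without lactating pools 1, 3 and 4, and 0.0926 and 0.166 without control pools 1 and 3. That of Socs2 was 0.0645, 0.143 and 0.178 without lactating pools 1, 2 and 3, and 0.0691, 0.116 and 0.0932 without control pools 1, 3 and 4.

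**Figure D4:**
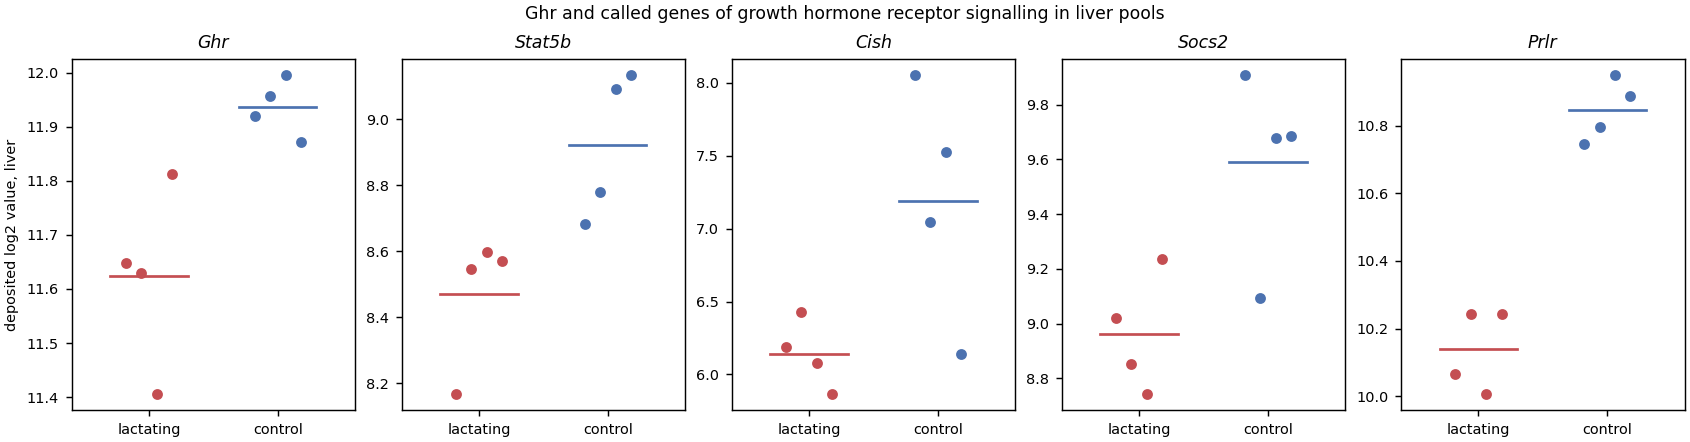
Deposited log2 value (y axis, a separate scale per gene) of Ghr, Stat5b, Cish, Socs2 and Prlr in lactating (left) and control (right) liver pools; points are pools and lines group means. Lactating and control pools lie apart for Ghr, Stat5b and Prlr, and overlap in Cish at control pool 4 (6.14) and in Socs2 at control pool 2 (9.09).

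Of 9 liver genes known to respond to growth hormone in rodents, the 3 that fell in the liver (1.17% of all clusters fell) were Cish, Socs2 and Prlr, which the signalling list holds too. The list was not split by the direction of the response, so this count gives no direction of hormone action. Of 11 genes of growth hormone secretion and ghrelin, 0 were called in any tissue by limma, and at an unadjusted p under 0.05 there were 1 (liver), 0 (duodenum), 2 (jejunum) and 1 (ileum). Averaged over the 4 tissues Gh1, the growth hormone gene itself, differed by 0.34 ± 0.09 (limma adjusted p = 0.0456; 2.51% of all clusters were called), at group means of 3.54 to 4.13, below the array medians. This call was lost without any 1 of the 8 pools, at 0.32 to 0.36.

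Of 14 measured other genes of the Igf axis (from a list of 16), 1 fell in the liver (1.17% of all clusters fell there), 1 rose in the jejunum (0.345%) and 1 fell in the ileum (0.803%). In the duodenum 0 passed, with the unadjusted p of Igf2bp3 at 0.0016 and of Insr at 0.0025. Igf2bp3, which binds Igf2 mRNA, gave 4.32, 4.36, 4.26 and 4.70 in lactating and 5.05, 5.33, 5.17 and 5.12 in control liver pools, a fall of -0.76 ± 0.11 (limma adjusted p = 5.44e-05). In the jejunum it gave 5.03, 4.97, 4.66 and 5.19 in lactating and 4.10, 4.13, 4.21 and 4.25 in control pools, a rise of 0.79 ± 0.11 (adjusted p = 0.000101). Its groups were apart in both tissues, at values close to the array medians.

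Insr, the insulin receptor, gave 6.88, 6.91, 6.72 and 6.64 in lactating and 7.52, 7.55, 7.20 and 7.45 in control pools of the ileum. The groups were apart, and the difference was -0.64 ± 0.11 (limma adjusted p = 0.000863). It was -0.42 in the jejunum (adjusted p = 0.0555), -0.35 in the duodenum (0.184) and -0.18 in the liver (0.525). With the replicate number as a block the jejunum (0.00737) and duodenum (0.0298) passed too, so that 2 of 14 genes were called in the jejunum (2.10% of all clusters) and 1 in the duodenum (1.86%).

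Of 7 measured liver genes that insulin represses or fasting induces, 1 rose in the liver (0.715% of all clusters rose) and 0 fell, while the median difference of the 7 was -0.36, where that of all clusters was 0.01. The gene that rose was Fgf21, a fasting hormone. It gave 9.04, 8.59, 8.59 and 7.80 in lactating and 8.05, 6.73, 7.97 and 6.47 in control pools, with overlap at lactating pool 4. The difference was 1.20 ± 0.28 (limma adjusted p = 0.0207). Its adjusted p was 0.117, 0.0753 and 0.0984 without lactating pools 1, 2 and 3, and 0.169 and 0.102 without control pools 2 and 4.

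Pck1, a rate-limiting enzyme of gluconeogenesis, gave 11.61, 11.71, 10.74 and 11.81 in lactating and 12.44, 12.36, 12.11 and 12.11 in control liver pools. All lactating pools were lower, at a difference of -0.79 ± 0.24 (limma adjusted p = 0.105; 0.0256 with the replicate number as a block, which called 1 of these 7 genes lower in the liver, and 4.13% of all clusters). G6pc1, which releases glucose, differed by -0.85 ± 0.33 in the liver, the insulin receptor substrate gene Irs2 by -0.41 ± 0.17 and the transcription factor gene Foxo1 by -0.36 ± 0.12, and none of these passed (limma adjusted p = 0.257, 0.282 and 0.122). In the ileum the difference of Pck1 was -1.35 ± 0.24 and that of Ppargc1a, a coactivator of its transcription, -1.40 ± 0.19 (adjusted p = 0.00256 and 6.81e-05), and both genes fell, 2 of the 7, where 0.803% of all clusters fell. Averaged over the 4 tissues Pck1 differed by -0.80 and Ppargc1a by -0.57 (limma adjusted p = 0.00278 and 0.00511), where 2.51% of all clusters were called. Both calls were lost by the repeated measures model (adjusted p = 0.186 and 0.198), and that of Ppargc1a also without lactating pool 3 (0.0588).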

How the data were processed

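The deposited log2 values cover 19434 transcript clusters on 32 arrays and come from the authors, who ran RMA in Affymetrix Expression Console (background correction, quantile normalization and summary at gene level, extended set), with versions not given in the sources used here. It has no columns of other samples (0 not mapped) and no detection values, and the number of arrays and the signal over background set the precision. No further scaling and no filter were applied.

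The model had 8 group means and treated the pool as random (limma 3.58.1 under R 4.3.3, duplicateCorrelation with statmod 1.5.0, correlation 0.163), followed by empirical Bayes moderation (prior degrees of freedom 3.24). P-values were two-sided and adjusted by Benjamini-Hochberg over the 19434 clusters, with calls at an adjusted p under 0.05. The fit was run on simulated normal values with the same spread in every tissue and no effect of the pool number. That run therefore did not test the fit for spreads that differ between tissues or for an effect of the number. Promoters came from RefSeq (GRCr8), and figures from matplotlib 3.10.9 (Python 3.11.15, pandas 2.3.3).

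In the labels, lactating and control pools carry the numbers 1 to 4. Deviations from group means correlated at 0.11 to 0.56 between pools of equal number and at -0.35 to 0.10 between others, and principal component 1 (30.1% of variance) set number 4 apart, so that a fit with the number as a block was run too. Other alternatives were no pool block, 1 tissue only, array weights, quantile normalization within each tissue, a group mean of 6 or more, moderation with trend and robust settings, the repeated measures model of the study, and each pool left out.

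A cluster was named where the probe table gives 1 symbol (620 have several, 5487 none). All 10 genes were named, from each other list at most 4 called genes, and the 3 genes most like Igfbp2. Jak2, Gh1, G6pc1, Irs2, Foxo1, the further Pck1, Ppargc1a and Insr values and the marker genes named were chosen after their values were seen. So were the intestinal values of Cish, Stat5b, Socs2 and Prlr. The 10 genes and the lists were chosen with earlier results of these data known.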

Additional observations from a re-analysis of the deposited data

Results flagged for a closer look

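In 4 of 80 groups of 4 pools, 1 pool lay far from the others, and chance alone gives about 5% of such groups. Igf1 was 6.52 in lactating ileum pool 4, with the next pool at 5.83. Igfbp3 was 7.30 in lactating jejunum pool 1, with the next at 8.06. Igfbp4 was 11.81 in control liver pool 1, with the next at 12.07. Igfbp5 was 6.21 in lactating ileum pool 1, with the next at 7.13.

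For Igfbp2 the lactation effect differed between tissues: the interaction had a limma adjusted p of 0.00531, and the effect in the liver exceeded the intestinal mean by 1.89 on the log2 scale (2.05% of all clusters were called by each test). For Igfbp4 the effect in the liver less that in the intestine was -0.62 and passed (adjusted p = 0.0401), while the interaction did not (adjusted p = 0.126), and the call was lost without 6 of the 8 pools and without the pool block (adjusted p = 0.145).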

How the results depend on the processing

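The number of arrays and, for Igfals and Igfbp1 in the intestine and Igfbp5 in 3 lactating liver pools, signals below the array medians limit these results, and rats within a pool were not measured singly. Of 160 single-gene alternatives in each tissue, 154 (liver), 151 (duodenum), 151 (jejunum) and 156 (ileum) kept the direction and the side of the threshold. Igfbp2 in the liver was the only call among these differences, so almost all of these counts are uncalled differences that stayed uncalled. The cause of the exceptions was not tested, except that leaving out pools or tissues leaves fewer arrays.

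Among the 10 genes, the count called in the liver was 1, and it was 2 with the replicate block (Ghr and Igfbp2), 0 from the arrays of 1 tissue only, and 1 to 2 when 1 pool was left out, with 2 without lactating pool 2 (Igfbp1 and Igfbp2). In the jejunum and in the ileum it was 0, and 1 with the replicate block (Igfbp4 in each). For the average over the tissues it was 0, and 3 without the pool block, 5 with the replicate block, 1 with array weights and 0 to 1 with 1 pool left out. For the interaction it was 1, and 2 with the replicate block, with quantile normalization within each tissue, with a group mean of 6 or more and by the repeated measures model, and 0 to 1 with 1 pool left out. For the effect in the liver less that in the intestine it was 2, and 1 without the pool block and 1 to 2 with 1 pool left out. Beyond these and the values given with each gene above, the replicate block changed no call of the 10 genes.

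Calls over all clusters were 366 (liver), 125 (duodenum), 157 (jejunum) and 249 (ileum), against 803, 361, 409 and 735 with the replicate block and 43, 29, 25 and 15 from 1 tissue only. With array weights they were 359 in the duodenum and 442 in the ileum. With 1 pool left out the lowest counts were 211 (liver), 76 (duodenum), 86 (jejunum) and 101 (ileum). Quantile normalization within each tissue called 185 higher and 201 lower in the liver (139 and 227 without it) and 54 and 76 in the duodenum (71 and 54).

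The values that changed sign had not passed the test. With quantile normalization within each tissue, Ghr in the duodenum was -0.026, Igf2r there -0.078 and Igfbp3 in the jejunum 0.017. With array weights, Igf1 in the duodenum was -0.020, Igf2r there -0.041 and Igfbp3 in the jejunum 0.036. Other uncalled differences crossed 0 when 1 pool was left out, with the ranges that follow. In the liver these were Igf1r (-0.13 to 0.034) and Igfals (-0.19 to 0.028). In the duodenum these were Igf1 (-0.10 to 0.14), Igf2r (-0.048 to 0.11) and Igfbp2 (-0.051 to 0.17). In the jejunum these were Igf1 (-0.34 to 0.042), Igfals (-0.0070 to 0.51), Igfbp3 (-0.080 to 0.19) and Igfbp5 (-0.055 to 0.33). In the ileum these were Igfbp2 (-0.025 to 0.076). For the level in liver less intestine in lactating rats they were Igf1r (-0.14 to 0.0067) and Igf2r (-0.053 to 0.17).

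The liver calls of Stat5b and Socs2 were also lost with array weights (limma adjusted p = 0.0574 and 0.102), those of Stat5b and Cish by the repeated measures model (0.0544 and 0.0655), and the call of Igfbp4 for liver less intestine without the pool block (0.145). The average of Gh1 did not pass with quantile normalization within each tissue (0.0665) or by the repeated measures model (0.0615). From the arrays of 1 tissue only, Prlr in the liver passed (0.0451), and Stat5b, Cish, Socs2, Fgf21 and Igf2bp3 in the liver, Igf2bp3 in the jejunum and Insr, Pck1 and Ppargc1a in the ileum did not (0.064 to 0.414). Igf2r passed for liver less intestine in control rats among clusters with a group mean of 6 or more (-0.23, adjusted p = 0.0347).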
